A study of Mus musculus with 11 samples.

Results

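The genes described are 9 components and targets of bone morphogenetic protein (BMP) signalling: the ligands Bmp2, Bmp4 and Bmp7, the secreted antagonist Grem1, the intracellular inhibitor Smad6 and the 4 inhibitor-of-DNA-binding genes Id1, Id2, Id3 and Id4. They were listed by name and not by a rule on their values, although earlier results of these data were known. All 9 were found among the 19938 genes measured, each by 1 probe set. Expression was read in mouse embryonic fibroblasts (MEFs) early in reprogramming towards induced pluripotent stem cells. Every construct was measured on 1 Affymetrix array, and the number of arrays limits the precision.

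All cells were male MEFs of 13.5 dpc F1 hybrid embryos of the genotype ROSA-rtTA; Nanog-GFP, so that the doxycycline-responsive transactivator and the Nanog reporter are shared by all groups, the control included. The fibroblasts received piggyBac transposons, which a transposase inserts into the genome, and doxycycline at 1 ug/mL in ES cell medium from 24 h after transfection. Of the 11 transposons, 8 carried polycistronic reprogramming cassettes (WTSI, STEMCCA, EB-C5 and MKOS; OSKM, OKN-HAMS, OKMS and its variant OK+9MS), 2 carried Klf4 without other factors (Klf4S and Klf4L) and 1 carried lacZ. The cassette and Klf4 cells were sorted for the mCherry reporter on day 6, whereas the lacZ cells were taken unsorted on day 2. Day, sort and transgene therefore cannot be told apart in any comparison with lacZ. Nothing in the labels says that the constructs came from separate cultures or litters, so each p-value measures the spread between constructs of a group and not between repeated cultures.

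BMP ligands bind serine/threonine kinase receptors, which phosphorylate Smad1, Smad5 and Smad9. These enter the nucleus with Smad4 and switch on target genes, among which the Id genes and the feedback inhibitor Smad6 are the best known. Id proteins have a helix-loop-helix domain but no DNA-binding region, and hold E proteins in dimers that cannot bind DNA. In fibroblast reprogramming, BMP signalling is known to aid the mesenchymal-to-epithelial transition by which the cells gain epithelial junctions.

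The 10 fibroblast markers (Vim, Col1a1, Thy1, Pdgfrb and others) all had a mean of at least 6 on the log2 scale in every group, the level taken here as the edge of the dim range, but so did the 7 keratinocyte and 6 endothelial markers, so this does not single out fibroblasts. Mean levels over the fibroblast list ran from 10.66 to 11.65 in the cassettes, from 11.97 to 11.98 in Klf4 alone and were 10.58 in lacZ. Of the 6 macrophage markers, 4 had a cassette mean under that level, Ptprc (5.67) and Adgre1 (5.41) among them, while the lysosomal Cd68 read 8.97 and Cd14 6.66. Of the 6 endothelial markers only the receptor Tek exceeded 7, at 9.57 in the cassettes, 7.92 in Klf4 alone and 6.24 in lacZ. Mean levels of the late pluripotency markers ran from 6.26 to 7.81 in the cassettes, from 6.05 to 6.22 in Klf4 alone and were 6.13 in lacZ. This was mainly Nanog (means of 9.46, 6.63 and 6.65) and Utf1 (8.08, 6.74 and 6.75), while Zfp42 and Dppa3 stayed under 6. Those of the skeletal muscle markers ran from 6.29 to 6.43, from 6.66 to 6.68 and were 6.78. Here Des differed (means of 7.1, 8.55 and 9.19), while Myod1, Myog, Myf5 and Myh3 were nearly level.

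On the log2 scale, 8 of the 9 genes had a range of at least 1 (2-fold) over the 11 arrays, against 26.1% of all genes. Bmp7 was the exception, with all arrays between 6.69 and 7.14. It was also the only one of the 9 with a mean under the median gene (7.65). The 26.1% covers genes of all levels, 21.0% of them with a mean under 6, and genes of like level were not compared. The genes did not move as a block: Id2 and Id4 were lowest with Klf4 alone, Bmp4 and Grem1 were lowest in the cassettes, and Id1, Id3, Id4 and Bmp2 spanned 4.55- to 4.91-fold among the cassettes.

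**Figure D1:**
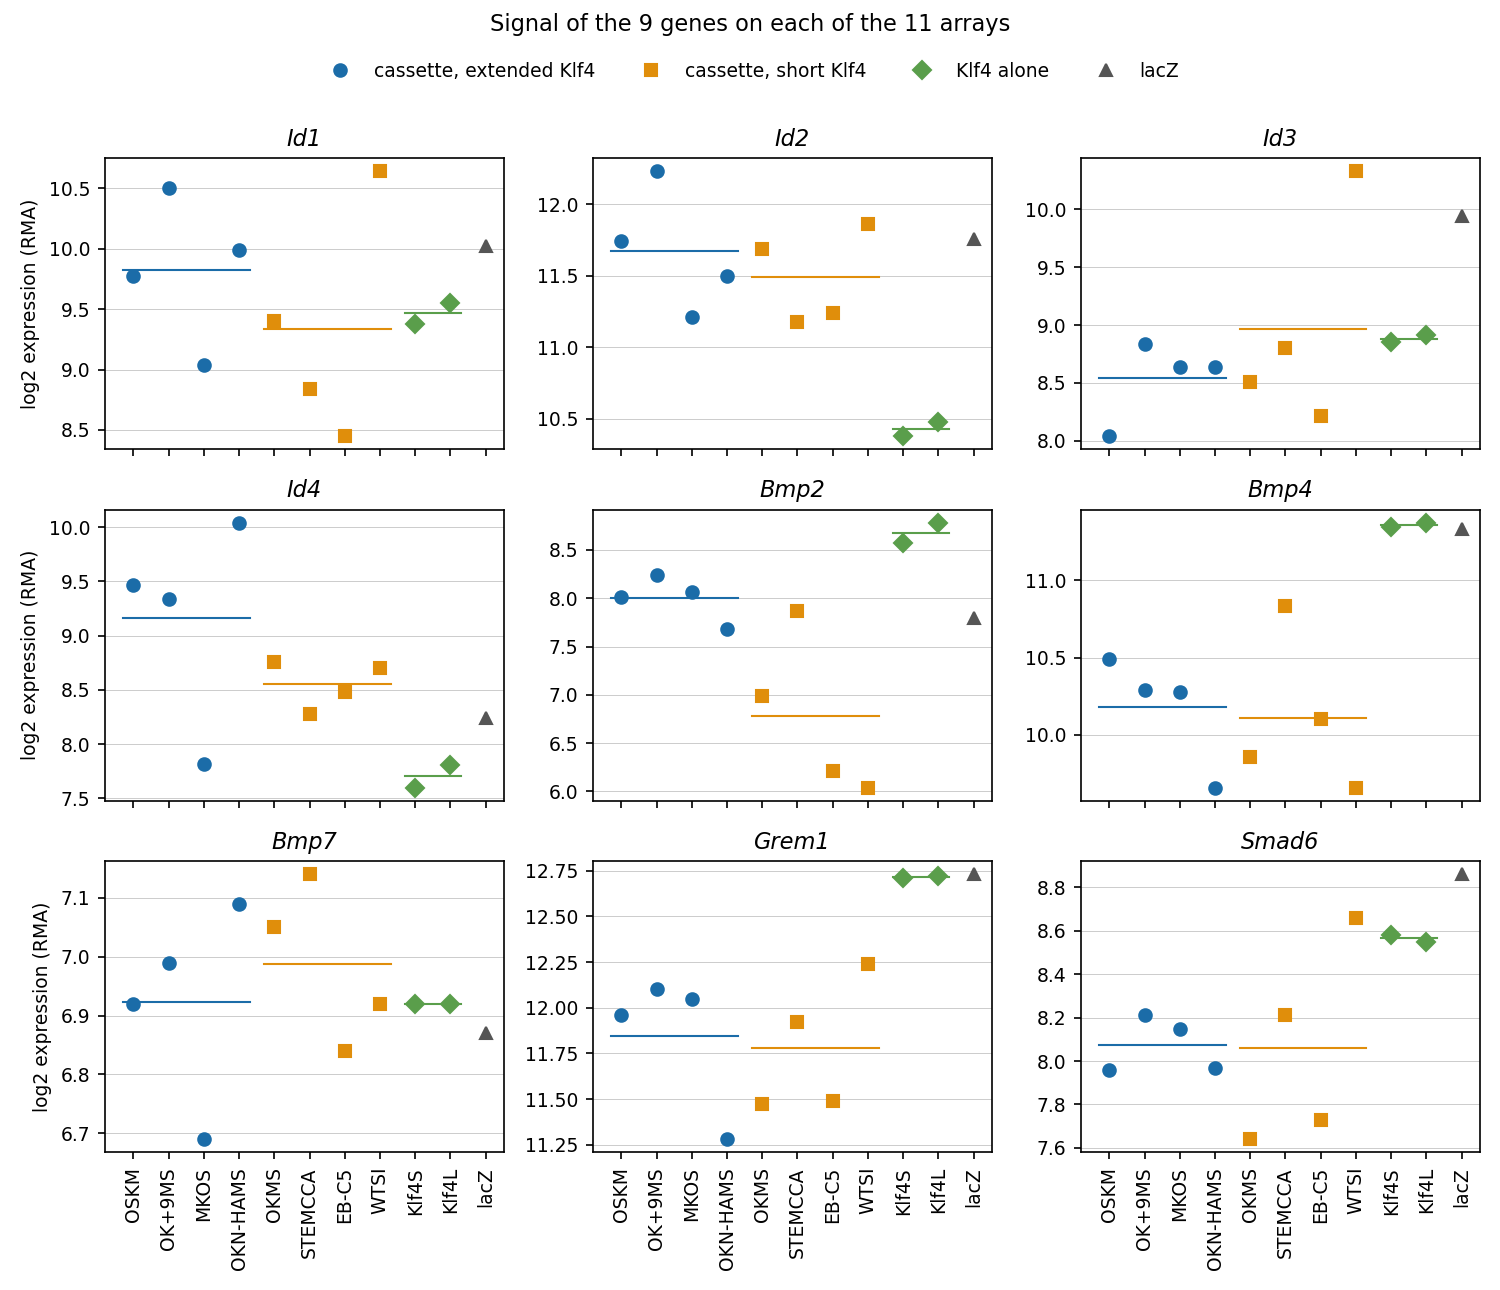
The log2 expression value (y axis, own scale in each panel) of each of the 9 genes on every array (x axis), 1 point per construct; horizontal lines are means of the 4 extended-Klf4 cassettes, the 4 short-Klf4 cassettes and the 2 Klf4 constructs. Bmp4 and Grem1 lie lower in all 8 cassettes than in Klf4S, Klf4L and lacZ, Id2 lies lowest in the 2 Klf4 constructs, and WTSI has the highest Id1 and Id3.

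Cassettes and Klf4 alone share the day of harvest and the sorting, and were compared by a limma fit over all genes with Benjamini-Hochberg adjustment, calling genes at an adjusted p under 0.05. Id2 was 2.21-fold higher in the cassettes, Bmp4 was 2.31-fold lower and Grem1 was 1.87-fold lower, while the other 6 genes did not pass the test. Thus 3 of 9 genes were called, where 14.5% of all genes were, 6.35% higher and 8.12% lower. The share rose with level. In repeats of the fit it was 20.2% among genes with a mean of at least 6. Among genes above the median gene it was 27.9%, with 3 of the 8 members there called. All 3 calls were lost when either Klf4 construct was left out, where the remaining one stands for its group and is assumed to vary like the others: adjusted p was 0.191 or 0.148 for Id2, 0.188 or 0.172 for Bmp4 and 0.236 or 0.205 for Grem1 without Klf4S or Klf4L.

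The promoters of these 3 genes are shown because they are the members called between the cassettes and Klf4 alone, and because Klf4, a Krüppel-like factor, is in all of these constructs. Each line gives the 250 bases before the annotated start from RefSeq (GRCm38.p6), 5′ to 3′ on the gene's strand, at chr12:25096093-25096342 (Id2, minus strand), chr14:46390670-46390919 (Bmp4, minus strand) and chr2:113758649-113758898 (Grem1, minus strand). Capitals mark GGCGCC, the GC-rich core known from BMP response elements, and CACCC, the box bound by Krüppel-like factors, read as GGGTG on the other strand.
Id2: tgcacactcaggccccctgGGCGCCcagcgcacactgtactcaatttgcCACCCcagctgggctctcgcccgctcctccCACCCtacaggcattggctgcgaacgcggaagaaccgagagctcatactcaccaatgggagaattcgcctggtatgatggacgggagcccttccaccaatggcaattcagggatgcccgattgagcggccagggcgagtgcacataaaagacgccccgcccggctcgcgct
Bmp4: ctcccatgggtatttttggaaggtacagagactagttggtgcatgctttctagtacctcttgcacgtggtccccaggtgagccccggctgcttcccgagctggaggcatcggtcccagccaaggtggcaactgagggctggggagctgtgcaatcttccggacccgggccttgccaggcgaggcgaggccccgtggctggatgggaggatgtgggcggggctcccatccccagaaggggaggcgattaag
Grem1: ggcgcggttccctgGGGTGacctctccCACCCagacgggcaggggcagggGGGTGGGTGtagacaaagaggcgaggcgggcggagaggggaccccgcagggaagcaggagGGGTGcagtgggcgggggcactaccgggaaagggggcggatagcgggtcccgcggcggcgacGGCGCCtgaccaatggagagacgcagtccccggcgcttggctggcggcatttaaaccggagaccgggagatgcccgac

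The Id2 window holds GGCGCC 1 time and CACCC 2 times, and the Grem1 window holds them 1 and 5 times, with an overlapping pair of CACCC matches in the GGGTGGGTG stretch. Neither occurs in the Bmp4 window, which has 3 E-boxes (CANNTG, the element bound by E proteins). Of 32851 promoter windows of the same length, 9.59% hold GGCGCC, 52% hold CACCC and 66.2% hold CANNTG on either strand. Among the 6 members with a window (Id2, Id3, Id4, Bmp4, Grem1 and Smad6, but not Id1, Bmp2 or Bmp7), 3 hold GGCGCC, 4 hold CACCC and 2 hold CANNTG. The GC content of these windows ran from 62.8% (Id2 and Id3) to 75.6% (Id4), and windows of like GC content were not compared. GTCT, the core of the Smad box, occurs in 5 of the 6 and in 82.9% of all windows. These matches describe letters only and do not show binding.

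Bmp4 is a BMP ligand that fibroblasts make, and it read 11.34 (Klf4S), 11.37 (Klf4L) and 11.33 (lacZ). In the 8 cassettes it ran from 9.66 (WTSI and OKN-HAMS) over a median of 10.19 to 10.83 (STEMCCA). Every cassette thus lay below all 3 other arrays. The log2 difference between the cassettes and Klf4 alone was -1.21 ± 0.28 SE (n = 8 against n = 2, limma adjusted p = 0.0233). In bulk RNA, fewer cells that make a transcript and less of it per cell cannot be told apart.

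Grem1 encodes gremlin, a secreted protein that binds BMP2, BMP4 and BMP7 and keeps them from their receptors. Klf4S (12.71), Klf4L (12.72) and lacZ (12.73) were nearly level. The cassettes ran from 11.28 (OKN-HAMS) over a median of 11.94 to 12.24 (WTSI), all lower than those 3 arrays. The difference from Klf4 alone was -0.90 ± 0.24 (limma adjusted p = 0.0355). It missed the threshold without OSKM (limma adjusted p = 0.0507) and without OKMS (0.0519).

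Groups that do not overlap in this direction, all 8 cassettes under both Klf4 arrays, were found for 17.8% of all genes. Mean fibroblast marker levels were likewise under those of Klf4 alone in every cassette, and their part in the lower Bmp4 and Grem1 was not tested. Against lacZ the lists differed: the fibroblast mean of 10.58 in lacZ was under the lowest cassette, although Thy1 (11.80 in lacZ) was lower in all 8 cassettes. The mesenchymal list ran from 9.48 to 10.65 in the cassettes against 11.09 in lacZ, with 0 of 8 genes above 0 in the difference and a median of -1.02. Bmp4 and Grem1 were lower than lacZ in all 8 cassettes, and the part of neither list was tested.

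Id2, an Id gene with wide expression, was lower with Klf4 alone than on any other array. It read 10.38 in Klf4S and 10.48 in Klf4L, against 11.76 in lacZ. The cassettes lay between 11.18 (STEMCCA) and 12.23 (OK+9MS), with a median of 11.59, so that all of them exceeded both Klf4 arrays. The difference between cassettes and Klf4 alone was 1.15 ± 0.25 (limma adjusted p = 0.0204). Higher levels without overlap were seen for 12.3% of all genes.

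Id4 was likewise lowest with Klf4 alone, with a wider spread among the cassettes. Against lacZ the order differed: 7 of 8 cassettes were above it for Id4, and 6 of 8 below it for Id2. Klf4S (7.60) and Klf4L (7.81) were the lowest arrays, MKOS lay next to them at 7.82, and lacZ read 8.24. The other cassettes ran from 8.28 (STEMCCA) to 10.04 (OKN-HAMS). The difference of the cassettes from Klf4 alone was as large as that of Id2, at 1.16, but with an SE of 0.49 it did not pass (limma adjusted p = 0.139, 95% interval 0.07 to 2.24).

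Id1, the Id gene most often used as a readout of BMP signalling, differed little between the group means: 9.58 in the cassettes, 9.47 in Klf4 alone and 10.02 in lacZ. Among the cassettes it spanned 4.55-fold. EB-C5 (8.45), STEMCCA (8.84) and MKOS (9.04) were lowest, OKMS (9.40), OSKM (9.77) and OKN-HAMS (9.99) were between, and OK+9MS (10.50) and WTSI (10.64) were highest. The last pair alone exceeded lacZ. The difference between cassettes and Klf4 alone was 0.11 with a 95% interval from -1.08 to 1.30, so that changes of more than 2-fold in either direction lie within it.

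Id3 read 9.94 in lacZ, 8.85 in Klf4S and 8.91 in Klf4L. Of the cassettes, 7 lay between 8.04 (OSKM) and 8.84 (OK+9MS), below both Klf4 arrays, and WTSI stood apart at 10.33. Cassettes and Klf4 alone differed by -0.13 ± 0.47 (limma adjusted p = 0.906).

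Smad6, which blocks BMP receptors and Smad1, had the same 4 highest arrays as Id3. It was highest in lacZ (8.86), followed by WTSI (8.66), Klf4S (8.58) and Klf4L (8.55). The other 7 cassettes ran from 7.64 (OKMS) to 8.21 (OK+9MS and STEMCCA). The difference of the cassettes from Klf4 alone was -0.50 ± 0.22 (limma adjusted p = 0.154). Without WTSI it was -0.59 and passed (limma adjusted p = 0.0483).

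Bmp2, the ligand closest in sequence to Bmp4, was highest in Klf4L (8.78) and Klf4S (8.57). All 8 cassettes were lower, and they differed widely: OK+9MS (8.24), MKOS (8.06), OSKM (8.01), STEMCCA (7.87) and OKN-HAMS (7.68) lay near lacZ (7.80), whereas OKMS read 6.99, EB-C5 6.21 and WTSI 6.04. The last pair lies at the edge of the dim range. The difference of -1.29 ± 0.59 between cassettes and Klf4 alone did not pass (limma adjusted p = 0.172). Bmp7, a ligand of epithelia, read 6.92 in both Klf4 constructs and a mean of 6.95 in the cassettes, and its difference of 0.03 had a 95% interval from -0.20 to 0.26.

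**Figure D2:**
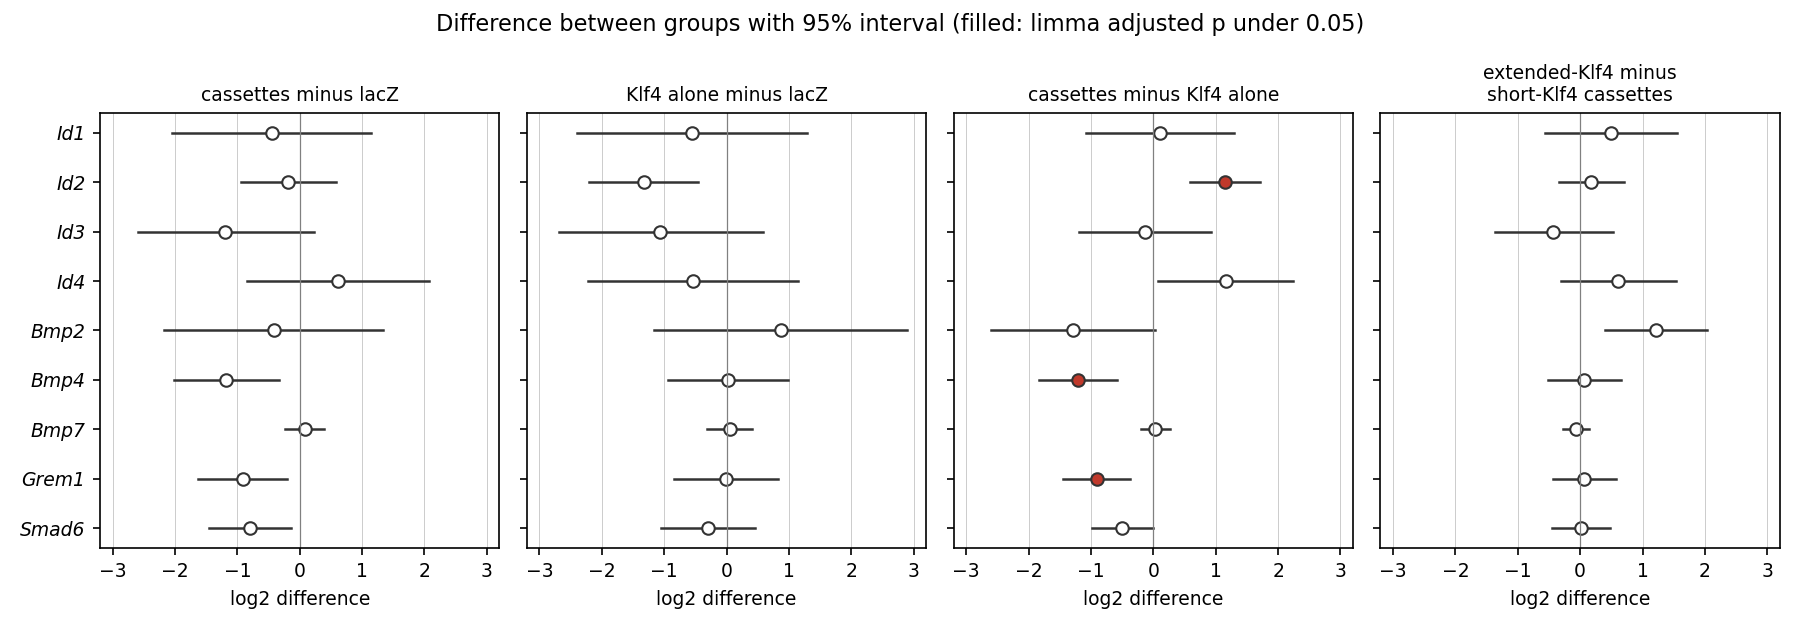
The log2 difference between group means (x axis) for each of the 9 genes (y axis) in the 4 comparisons; lines are 95% intervals of the limma fit and filled points are called genes. Filled points appear only for Id2, Bmp4 and Grem1 in the cassettes against Klf4 alone.

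Among other genes of the pathway, taken from lists drawn up by role, calls in the cassettes against Klf4 alone were mostly lower. Here fell and rose stand for called lower and called higher, as 8.12% and 6.35% of all genes were. Of the 14 BMP ligands, 5 fell and 0 rose (median log2 difference -0.22, against -0.017 for all genes). Of the 14 differences 4 were above 0, the largest in Bmp8b (0.88) and Bmp6 (0.77), which were not called. Bmp5 was lower by -1.26 ± 0.32, Bmp8a by -1.10 ± 0.22 and Gdf6 by -0.71 ± 0.14, and Gdf5 by -0.35 ± 0.06. Of the 11 receptors and co-receptors, the type II receptor Acvr2a (-0.73) and the co-receptor Rgmb (-0.70) fell and 0 rose.

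Of 15 measured antagonists, 7 fell and 0 rose (median -0.47). They were the chordin family members Chrd (-0.63) and Chrdl1 (-1.39), the Dan family member Nbl1 (-1.37) beside Grem1 itself, the follistatin-like genes Fstl3 (-1.06) and Fstl1 (-0.47) and the chordin partner Twsg1 (-0.87). The other 8 antagonists did not pass, and 3 of the 15 differences were above 0. Without OKMS 3 antagonists were called, 4 without WTSI and 0 without either Klf4 construct.

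Of the 12 Smads and their inhibitors only the BMP-responsive Smad5 was called, at -0.30 ± 0.08, and it was not called after median centring (limma adjusted p = 0.0812), after quantile normalization (0.0735), with an intensity trend and robust prior (0.0927), among genes above the median gene (0.0579) or without OKMS (0.0556), OK+9MS (0.0621), OKN-HAMS (0.0615) or either Klf4 construct. Of 15 measured BMP target genes 1 rose, Id2, and 4 fell: the homeobox genes Msx2 (-0.85 ± 0.11), Dlx3 (-0.51) and Dlx5 (-0.35) and the transcription factor Gata3 (-1.12). The E proteins Tcf3, Tcf4 and Tcf12, the dimer partners of the Id proteins, gave 0 calls, with a median of -0.07. Without Klf4S, 0 genes were called in any of the ligand, receptor, antagonist, Smad and target lists, and without Klf4L the only call was 1 target gene. Of 12 epithelial genes 1 was called higher, the adhesion gene Epcam (3.12 ± 0.89), which was not called without any 1 of 7 constructs. The median of the epithelial list was 0.97, with 11 of the 12 differences above 0. Of 8 mesenchymal genes 0 were called (median -0.75), and 0 of the differences were above 0.

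**Figure D3:**
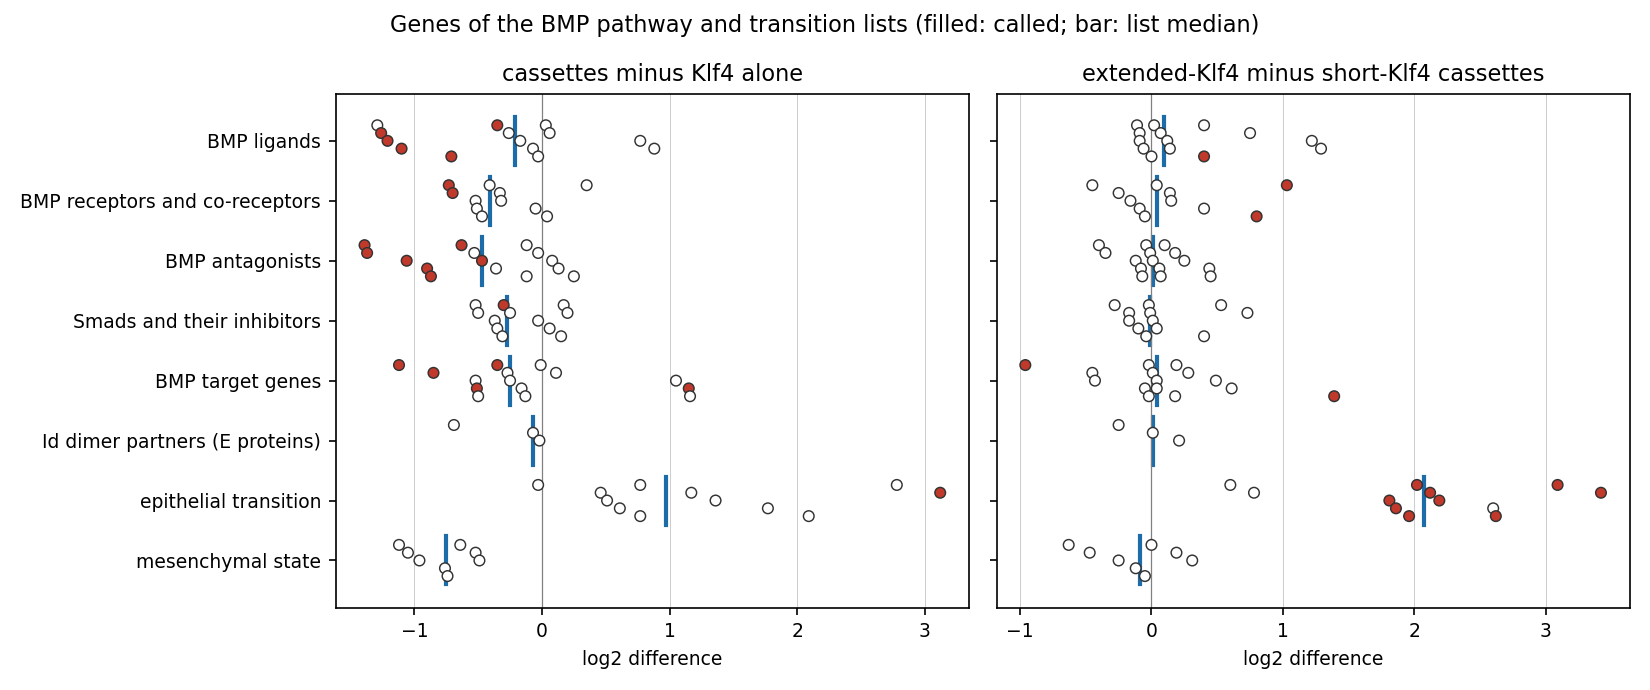
The log2 difference (x axis) of each gene in the pathway and transition lists (rows) for the cassettes minus Klf4 alone (left) and the extended-Klf4 minus short-Klf4 cassettes (right); 1 point per gene, filled where called, with a bar at the list median. On the left, 7 of 15 antagonists and 5 of 14 ligands are called lower; on the right, the calls gather in the epithelial list, with 9 of 12.

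Against the lacZ control, 0 of the 9 genes were called in the cassettes, where 2.05% of all genes were (0.456% higher and 1.59% lower). An unadjusted p under 0.05 was found for 3087 of all 19938 genes and for 3 of the 9. These were Bmp4 (-1.18 ± 0.37, limma adjusted p = 0.161), Grem1 (-0.91 ± 0.32, limma adjusted p = 0.207) and Smad6 (-0.80 ± 0.29, limma adjusted p = 0.231), each lower than lacZ in 8 of 8 cassettes. Such a one-sided position below lacZ was found for 20.8% of all genes, and one above it for 13.3%. Id3 was lower in 7 of 8 cassettes (-1.19 ± 0.63, limma adjusted p = 0.418), and without WTSI the difference of -1.41 was called (limma adjusted p = 0.0437). The difference of Id4 was 0.62, with 7 of 8 cassettes above lacZ (95% interval -0.84 to 2.08). For Id1, Id2 and Bmp2 the intervals were -2.04 to 1.15, -0.94 to 0.58 and -2.18 to 1.34.

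Other BMP targets passed in this comparison, which sets 8 cassettes against 1 array, taken on another day and unsorted, whose own spread was not measured. Of 15 measured targets 4 fell and 0 rose, with a list median of -0.62 against -0.013 for all genes. The shift was not particular to the cassettes: in Klf4 alone against the same array the list median was -0.54. In both comparisons 2 of the 15 differences were above 0. In the cassettes, Gata3 was lower by -2.64 ± 0.38, from 10.31 in lacZ to between 6.92 and 8.08. Bambi, a decoy receptor that BMP itself induces, fell by -1.37 ± 0.25 from 9.09, Msx2 by -1.06 ± 0.14 from 8.38 and Dlx5 by -0.62 ± 0.13 from 7.44. The call for Bambi was lost without either Klf4 construct (limma adjusted p = 0.0592), and that for Dlx5 without any 1 of 8 constructs and without dim genes (limma adjusted p = 0.0503). Both were lost with the compared groups alone (0.0592 and 0.0785). Without either Klf4 construct 2 targets were called. Among the antagonists only noggin (Nog) fell, by -0.53 ± 0.09, and among the ligands only Gdf5, by -0.61 ± 0.08.

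In Klf4 alone against the same lacZ array, 0 of the 9 genes were called, where 0.747% of all genes were. Both Klf4 arrays lay on the same side of lacZ for all 9, above it for 3 and below it for 6, as for 38.7% and 40.6% of all genes. Of the 9 only Id2 had an unadjusted p under 0.05, as 2289 of all 19938 genes did. Its difference was -1.32 ± 0.39 (n = 2 against n = 1, limma adjusted p = 0.192). Bmp4 (0.02), Grem1 (-0.01) and Bmp7 (0.05) differed little from lacZ, with 95% intervals of -0.94 to 0.99, -0.84 to 0.82 and -0.31 to 0.41. Id3 read -1.06 and Bmp2 0.87, both within wide intervals. The BMP target list had a median of -0.54, with 2 of its 15 differences above 0, near the -0.62 of the cassettes. None of the 5 BMP lists had a call. Both comparisons use the same lacZ array, so that any peculiarity of it enters both.

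The cassettes were next divided by the form of Klf4 they encode, a comparison on 1 day and after 1 sort. The labels name the form only for OK+9MS, named for 9 further N-terminal residues of Klf4, and for Klf4S and Klf4L. The forms in the other cassettes were taken from what is known of the published study: OSKM and MKOS carry the long form, OKN-HAMS an N-terminal tag in its place, and OKMS, STEMCCA, EB-C5 and WTSI the short form. The 4 extended-Klf4 and 4 short-Klf4 cassettes also differ in factor order and origin, which cannot be told apart from the form of Klf4 except in the OKMS pair below.

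Here 0 of the 9 genes were called, against 4.01% of all genes (3.01% higher and 1% lower). An unadjusted p under 0.05 was found for 3351 of all 19938 genes and for 1 of the 9. That gene was Bmp2, at 8.0 ± 0.23 (SD, n = 4) in the extended-Klf4 and 6.78 ± 0.84 (SD, n = 4) in the short-Klf4 cassettes. The difference of 1.22 ± 0.36 SE had a limma adjusted p of 0.115. STEMCCA, a short-Klf4 cassette, lay within the range of the extended ones, and without it the difference was 1.59 and was called (limma adjusted p = 0.0107). Over the constructs left out, the Bmp2 difference ran from 0.98 to 1.59, with a limma adjusted p from 0.0107 to 0.265. Id4 differed by 0.61 ± 0.40 (limma adjusted p = 0.521). MKOS was the lowest of all cassettes in Id4, and without it the other 3 extended-Klf4 cassettes exceeded the short ones by 1.06 (limma adjusted p = 0.0176). OKN-HAMS was the highest, and without it the difference was 0.32 (limma adjusted p from 0.0176 to 0.755 over the constructs left out).

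For the remaining members the intervals differed in width. Bmp4 differed by 0.07 (95% interval -0.52 to 0.66), Grem1 by 0.06 (-0.44 to 0.57), Smad6 by 0.01 (-0.45 to 0.48) and Id2 by 0.18 (-0.34 to 0.70). These intervals do not reach 2-fold. They rest on the spread between constructs with 1 array each and not between repeated cultures, so they do not exclude a 2-fold effect of the Klf4 form. Id1 (-0.57 to 1.55) and Id3 (-1.37 to 0.52) have intervals that reach beyond 2-fold, and WTSI held the highest value of both. Extended and short cassettes overlapped in all 9 genes; groups without overlap were found higher for 5.19% and lower for 3.71% of all genes.

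The epithelial genes, by contrast, separated the same cassettes. Of 12 genes on that list 9 were higher with extended Klf4 and 0 lower (median 2.07 against -0.020 for all genes), among them the keratin Krt8 (3.42 ± 0.50), the claudin Cldn4 (3.09 ± 0.24), E-cadherin Cdh1 (2.62 ± 0.57) and the transcription factor Ovol1 (2.19 ± 0.20). The count was 6 without OSKM, EB-C5, OKN-HAMS or either Klf4 construct, and the call for Cdh1 was lost without any 1 of 8 of the 10 constructs and with the compared groups alone (limma adjusted p = 0.0789). List means ran from 9.40 to 10.04 in the extended and from 7.34 to 8.55 in the short cassettes, against 7.48 to 7.52 in Klf4 alone and 6.80 in lacZ. The mean of the keratinocyte markers ran from 7.42 to 7.79 in the extended and from 6.53 to 6.72 in the short cassettes, mostly through Krt14 (11.95 and 7.02). Ivl read 6.93 and 6.06, Krt1 6.56 and 6.09, Lor 6.57 and 6.22 and Krt5 7.27 and 6.94, while Trp63 (6.96 in both) and Krt10 (6.88 and 6.92) did not follow. Their part in the Bmp2 and Id4 values was not tested. Of 8 mesenchymal genes, Snai1, Snai2 and Zeb1 among them, 0 were called (median -0.09).

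Within the BMP lists, few genes differed by Klf4 form. Both members of an endothelial BMP receptor pair were higher in the extended-Klf4 cassettes: the co-receptor endoglin (Eng, 1.03 ± 0.18, from 9.21 to 10.24) and the type I receptor Acvrl1 (0.80 ± 0.12, from 7.53 to 8.33). In Klf4S and Klf4L, with 1 array each, Eng read 9.73 and 9.81 and Acvrl1 8.48 and 8.40. All 4 extended cassettes exceeded all 4 short ones in either gene. The call for Eng was lost without OSKM (limma adjusted p = 0.051) or OK+9MS (0.0563). Of the targets, Gata2 was higher by 1.39 ± 0.27 and the Notch and BMP target Hey1 lower by -0.96 ± 0.16, the former losing its call without OSKM, OKMS, OK+9MS or EB-C5 without either Klf4 construct and with the compared groups alone (limma adjusted p = 0.0573). The oocyte ligand Bmp15 was called at 0.40 from a level of 5.92, in the dim range, and not without OSKM (limma adjusted p = 0.0527). Of the antagonists, Smads and E proteins 0 were called.

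The 9 added residues could be read directly in pairs of constructs that the labels match, with 1 array each and therefore without a test of either pair. From OKMS to OK+9MS, 8 of the 9 genes were higher, and 2 of them at least 2-fold, where 3.18% of all genes differed by that much, 2.3% higher and 0.878% lower. Id1 was 2.14-fold higher (9.40 to 10.50) and Bmp2 2.38-fold (6.99 to 8.24). Grem1 (0.63), Id4 (0.58), Smad6 (0.56), Id2 (0.54), Bmp4 (0.42) and Id3 (0.33) differed by less, and Bmp7 by -0.06. Over all genes these arrays had a median difference of 0.007 and an SD of 0.418.

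From Klf4S to Klf4L, 7 of the 9 genes were higher, and the largest differences among the 9 were 0.21 for Bmp2 and Id4 and 0.17 for Id1. No gene of the 19938 reached 2-fold, and the SD over all genes was 0.126. The same extension thus went with larger differences within the cassette than alone, over all genes by the SD as well as in these, so this is not particular to the 9. Whether the pairs differ from each other was not tested, for want of replicates. In 1 limma fit over both pairs, with the pair as a block, Bmp2 was higher by 0.73 (95% interval -0.24 to 1.7), Id1 by 0.64 (-0.23 to 1.5) and Id4 by 0.39 (-0.03 to 0.82) with the added residues. That fit called 0 of the 9 genes and 0% of all genes (0 and 219 at an unadjusted p under 0.05), and with 1 residual degree of freedom it is too small to call differences of this size, so its p-values show nothing about their stability.

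**Figure D4:**
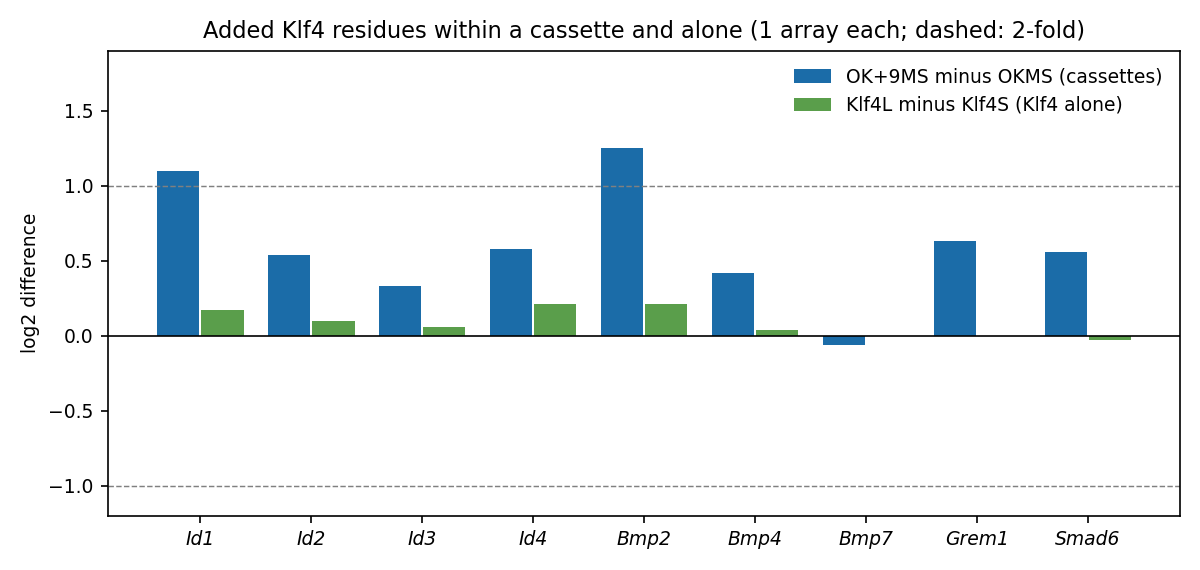
The log2 difference (y axis) of each of the 9 genes (x axis) between constructs with and without 9 added Klf4 residues, within the OKMS cassette (OK+9MS minus OKMS) and in Klf4 alone (Klf4L minus Klf4S); 1 array per construct, dashed lines at 2-fold. Id1 (1.10) and Bmp2 (1.25) pass the line in the cassette pair, and 0 genes do in the Klf4 pair.

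Across the 11 arrays the members fell into a few loosely shared patterns, given here as descriptions without a test, since all values come from the same arrays and the arrays fall into groups. Grem1 and Smad6 had the highest correlation (Pearson r = 0.89, Spearman rho = 0.86, and r = 0.79 over the 8 cassettes). Id3 and Smad6 followed the same order closely (r = 0.80, rho = 0.93, and 0.85 over the cassettes). Id1 and Id2 were less alike over all arrays (r = 0.56) than over the cassettes (0.86). Bmp4 and Grem1, both lower in every cassette, had r = 0.81 over 11 arrays but 0.36 within the cassettes. Id1 and Id3 had r = 0.59, and Id3 and Id4 were not alike (r = -0.21).

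Of 4988 genes with a mean of at least 6 and a range of at least 1, those most like each member were found by Pearson r over the 11 arrays. For Id3 they were Smad9 (0.939), a BMP-regulated Smad, Atoh8 (0.938), a transcription factor on the target list, and Gadd45g (0.934). Smad9 read 8.09 in WTSI and 7.72 in lacZ against 6.81 to 7.34 on the other arrays, and Atoh8 read 9.03 in WTSI and 9.15 in lacZ against 7.36 to 8.04. Since these genes were chosen for their likeness to Id3, their shared high arrays, WTSI and lacZ, are no separate finding. Smad7, the other inhibitory Smad, was highest in lacZ (9.25) and WTSI (9.06) as well, with the other arrays from 7.78 to 8.64. Other targets did not follow: in WTSI Bambi (7.77), Gata3 (7.28) and Msx2 (7.49) were lower than in both Klf4 arrays.

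For Smad6 the most similar genes were the cytokine Clcf1 (0.976), the adhesion receptor Adgrg1 (0.958) and the nuclear receptor Nr4a2 (0.947). Id1 was most like the AP-1 gene Fosl1 (0.858), Csrp2 (0.834) and Nr4a1 (0.833). Id2 went with the hepatocyte growth factor receptor Met (0.948), the lipid transporter Mfsd2a (0.942) and the helicase Ddx39a (0.906), all lowest in Klf4S and highest in OK+9MS. Id4 went with Rgs8 (0.946), Avpi1 (0.931) and Plekhf2 (0.924), all highest in OKN-HAMS. Bmp2 went with Renbp (0.969), Sh3d19 (0.956) and Plekhb2 (0.941), each lowest in WTSI. For Bmp4 the genes were Serpinb9 (0.966), Zfp618 (0.963) and Pla2r1 (0.962), and for Grem1 St3gal1 (0.971), Tafa5 (0.967) and Gask1b (0.966).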

How the data were processed

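The authors deposited log2 values computed by RMA, per the submitters' processing notes; its version and settings are not given in the sources used here, and RMA can understate large differences. They were used as deposited (array medians 7.188 to 7.269). Of 28856 probe sets, 21789 had 1 gene symbol in the platform's probe table, 1621 several and 5446 none; 21698 of the first matched a current Entrez entry, and the highest-mean probe set was kept for each of 19938 genes. Gene lists and members were chosen with earlier results of these data known. The pathway genes named are up to 4 called genes per list with the largest difference; like genes are the 3 highest in Pearson r, predicted genes and clone names left out. Chrd, Fstl1, Smad7 and the cell type markers were named after their values were seen.

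Groups were compared with limma 3.58.1 (lmFit, eBayes; R 4.3.3) in 1 fit over all 11 arrays with 3 groups, or 4 for the Klf4 form (8 and 7 residual degrees of freedom), Benjamini-Hochberg adjustment over all genes and calls under 0.05. The single lacZ array takes its spread from the remaining groups. Dim genes were not filtered out. The model code was tested on simulated data.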

Additional observations from a re-analysis of the deposited data

Results flagged for a closer look

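Id3 in WTSI, at 10.33, lay far above the other 7 cassettes (8.04 to 8.84): the gap to its neighbour was 0.65 of the whole range, over Dixon's 95% critical value of 0.526 for 8 samples. Among 27 sets of values tested this way (9 genes in 3 groups) it was the only one, and chance alone flags about 5 in 100.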

How the results depend on the processing

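The number of the 9 genes called was the same or within 1.5 times under the alternatives that left out no single construct (other probe set summary, median centring, quantile normalization, 2 filters on dim genes, another variance prior, a 2-fold requirement, cassettes split by Klf4 form, and the compared groups alone, which drops the arrays of the other groups). Leaving out 1 construct in turn gave 0 to 1 called genes in the cassettes against lacZ, 0 to 4 in the cassettes against Klf4 alone (3 in the full fit) and 0 to 1 for the form of Klf4; Klf4 alone against lacZ stayed at 0. Differences near 0 changed sign. Bmp4 in Klf4 alone against lacZ was -0.01 after median centring; by Klf4 form, Smad6 was -0.05 after median centring and -0.04 after quantile normalization, and Grem1 was -0.01 after the latter. With a construct left out, Id1 in the cassettes against Klf4 alone ran from -0.04 to 0.27, and by Klf4 form Bmp4 ran from -0.08 to 0.31, Grem1 from -0.04 to 0.25, Smad6 from -0.13 to 0.21, Id2 from -0.01 to 0.33, Bmp7 from -0.12 to 0.01 and Id3 from -0.68 to 0.03; the cause was not tested. Over all genes, calls ran from 184 to 734 (409 in the full fit) for cassettes against lacZ, 0 to 321 (149) for Klf4 alone against lacZ, 92 to 3968 (2885) for cassettes against Klf4 alone and 318 to 946 (800) by Klf4 form. Repeats of list counts and of named pathway genes were chosen after seeing the data. The labels give no replicate numbers. A paired fit over the OK+9MS and Klf4L pairs, added after seeing the data, called 0 of the 9 genes, and the same fit with no replicate block called 0, in a design too small to call differences of this size. Other background corrections and a slide block were not run, since RMA values hold neither.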
